A study of Mus musculus with 6 samples.

Results

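TRAIL, the tumour necrosis factor-related apoptosis-inducing ligand, and its receptors were examined in natural killer (NK) cells of the mouse liver. The genes were chosen by symbol in the deposited expression table: Tnfsf10 for the ligand, Tnfrsf10b for the death receptor, and Tnfrsf22 and Tnfrsf23 for the decoy receptors. All 4 were found among 55414 genes. The study holds 6 libraries of messenger RNA from liver NK cells of wild-type (WT) mice taken on day 3. A total of 3 libraries came from controls given phosphate-buffered saline (PBS), and 3 from animals treated with metformin, a drug that lowers blood glucose, at 200 mg per kg for 3 days. The title of the series names TRAIL and antitumour activity, so the comparison bears on whether the drug altered the messenger RNA of the ligand or its receptors in these cells. The sources used here give neither the ages of the mice nor the isolation method, and they leave unsaid whether each library is a different animal. P-values therefore describe library-to-library spread, part or all of which may be technical.

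TRAIL is a membrane-bound ligand of the tumour necrosis factor (TNF) family. It kills target cells by gathering death receptors on their surface, which recruit the adaptor FADD and caspase-8. In the mouse liver it is carried by type 1 innate lymphoid cells (ILC1), tissue-resident relatives of NK cells, and by immature NK cells, while mature circulating NK cells carry little of it. Mice have a single TRAIL death receptor, DR5, encoded by Tnfrsf10b. The proteins of Tnfrsf22 and Tnfrsf23 bind TRAIL but lack the death domain that starts the caspase cascade.

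The decoy genes lie side by side on chromosome 7, and parts of their transcripts are near copies of each other. In the coordinates of the deposited table Tnfrsf22 (ENSMUSG00000010751.16) spans 143188543 to 143203398 and Tnfrsf23 (ENSMUSG00000037613.17) spans 143219546 to 143239609, both on the minus strand. Tnfrsf26 (ENSMUSG00000045362.9), another gene of the cluster, spans 143161396 to 143182459 on the same strand. Over 531 aligned coding bases of GENCODE M21 models, Tnfrsf22 and Tnfrsf23 shared 481 (90.6%), whereas 75.2% of the aligned coding bases of Tnfrsf22 and 73.1% of those of Tnfrsf23 matched Tnfrsf26. The stretch below of 150 coding bases is shown because a read from it that misses the differing bases matches both genes: 147 bases are identical, and the 3 that differ are in capitals. It covers coding positions 384 to 533 of Tnfrsf22, in exons 4 to 6 of 6 (GRCm38, minus strand, between chr7:143638415-143640805), and 354 to 503 of Tnfrsf23, also in exons 4 to 6 of 6 (chr7:143668571-143670885).
Tnfrsf22: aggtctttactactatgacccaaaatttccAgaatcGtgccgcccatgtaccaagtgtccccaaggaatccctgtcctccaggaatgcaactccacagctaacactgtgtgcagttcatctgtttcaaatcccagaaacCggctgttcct
Tnfrsf23: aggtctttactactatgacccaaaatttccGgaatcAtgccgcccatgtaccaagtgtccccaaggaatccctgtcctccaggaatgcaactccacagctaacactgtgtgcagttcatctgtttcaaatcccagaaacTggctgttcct
Of all 50-base words in their annotated transcripts, 719 were common to both, which is 17.3% of the words of Tnfrsf22 and 18.0% of those of Tnfrsf23. At 100 bases 377 words were common, and with Tnfrsf26 0 were shared at either length.

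Depth was 22152167 to 30161214 estimated reads per library, with the metformin libraries the 3 shallowest. Levels are given as the authors' estimated reads, as CPM (reads scaled to depth, here with TMM factors) and as the deposited TPM, which are also scaled to gene length and are used here for any ranking of genes. Fold changes are metformin against PBS from edgeR's quasi-likelihood test over 15527 genes, with Benjamini-Hochberg adjusted p-values and a threshold of 0.05. This test called 0 genes (0%), 821 were higher at an unadjusted p under 0.05 (5.29%) and 789 lower (5.08%). DESeq2 called 147 genes higher and 152 lower, and limma-voom called 0. The CPM of the groups did not overlap for 1473 genes that were higher (9.49%) and 1496 that were lower (9.63%). The libraries carry PCR copies and no molecular identifiers, so a limit drawn from the count of a single library covers counting error only. The SE and intervals of fold changes come from edgeR's fit and include the spread between libraries. Metformin 3 stood apart from the other libraries. Its Spearman correlation of relative expression with gene length was -0.422, against -0.110 to 0.327 elsewhere, and its hepatocyte markers summed to 360 CPM, against 76.6 to 178 CPM.

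All 4 genes passed the filter on low counts, and 0 of 4 passed the threshold over all genes. At an unadjusted p under 0.05 Tnfsf10 was higher with metformin and Tnfrsf22 was lower, 1 of 4 each way, beside 5.29% and 5.08% of all genes. The same 2 genes were those whose CPM did not overlap between the groups, beside 9.49% of all genes higher and 9.63% lower without overlap. The order of the mean TPM in both groups put Tnfsf10 first, at 33.2 and 42.6 TPM, and Tnfrsf22 second, at 3.68 and 2.08 TPM. Tnfrsf23, at 1.02 ± 0.626 and 0.317 ± 0.293 TPM, and Tnfrsf10b, at 0.628 ± 0.298 and 0.470 ± 0.187 TPM (SD, n = 3), could not be ordered beyond their spread. Because RNA was measured in bulk, a change in the number of cells of a type and a change in RNA per cell cannot be told apart in any of these values.

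**Figure D1:**
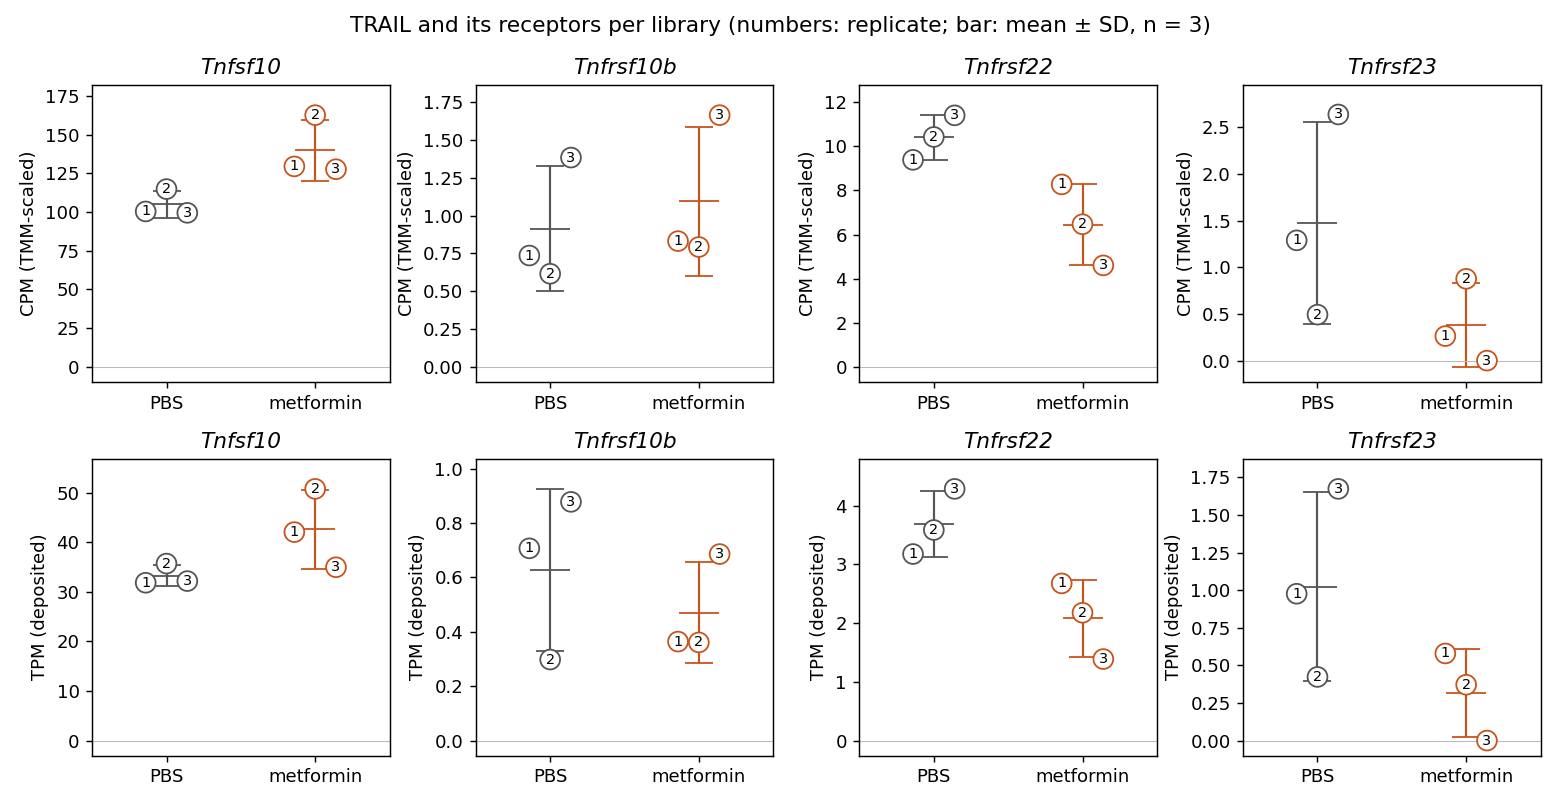
The level of each gene in each library, as TMM-scaled CPM (upper panels) and as deposited TPM (lower panels); numbers mark the replicate, and lines the mean ± SD of 3 libraries. In CPM the 3 metformin libraries lie above the 3 PBS libraries for Tnfsf10 and below them for Tnfrsf22, whereas in TPM metformin 3 falls among the PBS libraries for Tnfsf10.

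Tnfsf10, on chromosome 3 (27371177 to 27396576, plus strand, ENSMUSG00000039304.12), encodes the ligand, a protein of 291 residues. PBS libraries 1, 2 and 3 held 2728, 2799 and 3020 estimated reads of Tnfsf10, and metformin libraries 1, 2 and 3 held 2960, 3900 and 2915. Scaled to depth these were 100.4, 115 and 99.6 CPM with PBS and 130, 163 and 128 CPM with metformin. All metformin libraries were thus above all PBS libraries, with metformin 2 the highest. The means were 105 ± 8.61 CPM and 140 ± 19.7 CPM (SD, n = 3 each; two-sided exact permutation p = 0.1, the lowest value possible here). The log2 fold change of Tnfsf10 was 0.42 (SE 0.12, 95% interval 0.13 to 0.70), a fold of 1.33 with an interval of 1.09 to 1.63. Its unadjusted p of 0.0102 ranked 439 of 15527 genes, and its adjusted p was 0.360. Under the other settings the log2 fold change of Tnfsf10 ran from 0.29 without metformin 2 to 0.53 with the gene length trend removed, and the adjusted p from 0.103 with DESeq2 to 0.705.

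In deposited TPM the separation of Tnfsf10 was not complete. PBS libraries held 31.8, 35.7 and 32.2 TPM and metformin libraries 42.0, 50.7 and 34.9 TPM. Metformin 3 lay below PBS 2, so the groups overlapped (exact permutation p = 0.2), although metformin 3 was above every PBS library in CPM. The means were 33.2 ± 2.14 and 42.6 ± 7.91 TPM (SD, n = 3), and the log2 fold change on the log2(TPM + 1) scale was 0.33. Metformin 3 is the library in which long genes read low, and Tnfsf10 is 4993 bases long. With that trend removed from the counts the log2 fold change was 0.53, and the part of the trend in the difference between the scales was not tested.

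Tnfrsf10b, on chromosome 14 (70004921 to 70021860, plus strand, ENSMUSG00000022074.7), encodes the death receptor DR5, of 381 residues. It was measured from 20, 15 and 42 estimated reads in PBS libraries 1 to 3 and 19, 19 and 38 reads in metformin libraries 1 to 3. These were 0.736, 0.616 and 1.38 CPM with PBS and 0.832, 0.793 and 1.67 CPM with metformin. The groups overlapped, and replicate 3 was the highest library in each. The log2 fold change of Tnfrsf10b was 0.26 (SE 0.53, 95% interval -0.97 to 1.49; adjusted p = 0.880), an interval that runs from 0.510 to 2.80 as a fold. No difference in the receptor was detectable at this depth, and the interval leaves room for a change of either sign. The deposited TPM of Tnfrsf10b were 0.707, 0.298 and 0.878 with PBS and 0.364, 0.361 and 0.686 with metformin. They did not follow the reads closely, since PBS 1, with 20 reads, was given 0.707 TPM and metformin 1, with 19 reads, 0.364 TPM. The sign itself turned on the setting: the log2 fold change was -0.14 on log2(TPM + 1), -0.30 on log2(TPM + 0.1) and -0.18 without metformin 3.

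Tnfrsf22 encodes a decoy receptor, of 198 residues in the GENCODE M21 model used here. Its estimated reads were 254.57, 254.37 and 346.29 in PBS libraries 1 to 3, and 188.82, 154.85 and 105 in metformin libraries 1 to 3. Scaled to depth these were 9.39, 10.4 and 11.4 CPM with PBS and 8.27, 6.47 and 4.601 CPM with metformin. In TPM they were 3.18, 3.59 and 4.29 with PBS and 2.68, 2.18 and 1.39 with metformin. Every metformin library was below every PBS library on both scales, and metformin 3 was the lowest. The means were 10.4 ± 1.01 and 6.45 ± 1.84 CPM (SD, n = 3; exact permutation p = 0.1). The log2 fold change of Tnfrsf22 was -0.69 (SE 0.25, 95% interval -1.27 to -0.11), a fold of 0.620, with an unadjusted p of 0.0247 and an adjusted p of 0.435. It ran from -0.92 without metformin 1 to -0.50 without metformin 3, and was below 0 under all 16 other settings.

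Tnfrsf23 encodes the second decoy receptor, of 176 residues. Its estimated reads were 35.43, 11.63 and 79.71 in PBS libraries 1 to 3 and 6.12, 21.15 and 0 in metformin libraries 1 to 3. The groups overlapped, since metformin 2, at 0.876 CPM, was above PBS 2, at 0.493 CPM. In TPM, at 0.976, 0.423 and 1.67 with PBS and 0.579, 0.371 and 0 with metformin, it was metformin 1 that lay above PBS 2. Taken as a plain count, the 0 of metformin 3 allows up to 0.135 CPM, the value of 3 reads at its depth. Because this 0 is an estimated share of reads that can match both decoy genes, the true level may be higher. Tnfrsf23 passed the filter through PBS, where all libraries exceeded the minimum of 0.407 CPM, against 1 metformin library. Its log2 fold change was -1.94 (SE 1.07, 95% interval -4.41 to 0.53; adjusted p = 0.556) and ran from -3.45 without metformin 2 to -0.60 on log2(TPM + 1).

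The division of reads between the decoy genes was an estimate, as the counts themselves show. Counts of Tnfsf10, Tnfrsf10b and Tnfrsf26 were whole in 6 of 6 libraries, while those of Tnfrsf22 and Tnfrsf23 were fractional in 5 of 6. Added together, the decoy counts were whole, within 0.011, in 5 of 6 libraries: 290, 266 and 426 with PBS, and 176 and 105 in metformin 2 and 3. The exception was metformin 1, at 194.94. Tnfrsf23 received 12.2%, 4.37% and 18.7% of the joint reads in PBS libraries and 3.14%, 12.02% and 0% in metformin libraries. The values of each decoy gene alone are therefore uncertain, that of Tnfrsf23 most, since its share is the smaller.

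Taken as 1 feature, the decoy genes were lower with metformin in each library. This sum was formed after the fractional counts had been seen. PBS libraries held 10.7, 10.9 and 14.04 CPM of the decoy genes together, and metformin libraries 8.54, 7.34 and 4.601 CPM. The groups did not overlap, and the means were 11.9 ± 1.88 and 6.83 ± 2.02 CPM (SD, n = 3; exact permutation p = 0.1). The joint log2 fold change was -0.80 (SE 0.26, 95% interval -1.41 to -0.19), a fold of 0.575, with an unadjusted p of 0.0164 and an adjusted p of 0.401 over 15526 genes. It ran from -0.59 without metformin 3 to -0.999 without metformin 1. Where the summed decoy reads were lowest, in metformin 3, long genes also read low; with the gene length trend removed the joint value was -0.73.

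A non-coding gene on the opposite strand, E230032D23Rik, overlaps the spans of both decoy genes (143181761 to 143224351). The sources used here do not say whether counting used strand, so its reads and theirs cannot be told apart where exons overlap. E230032D23Rik had 54, 40 and 77 estimated reads with PBS and 62, 53 and 62 with metformin. Its log2 fold change of 0.31 (SE 0.32, adjusted p = 0.746) had the opposite sign to that of the decoy genes.

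**Figure D2:**
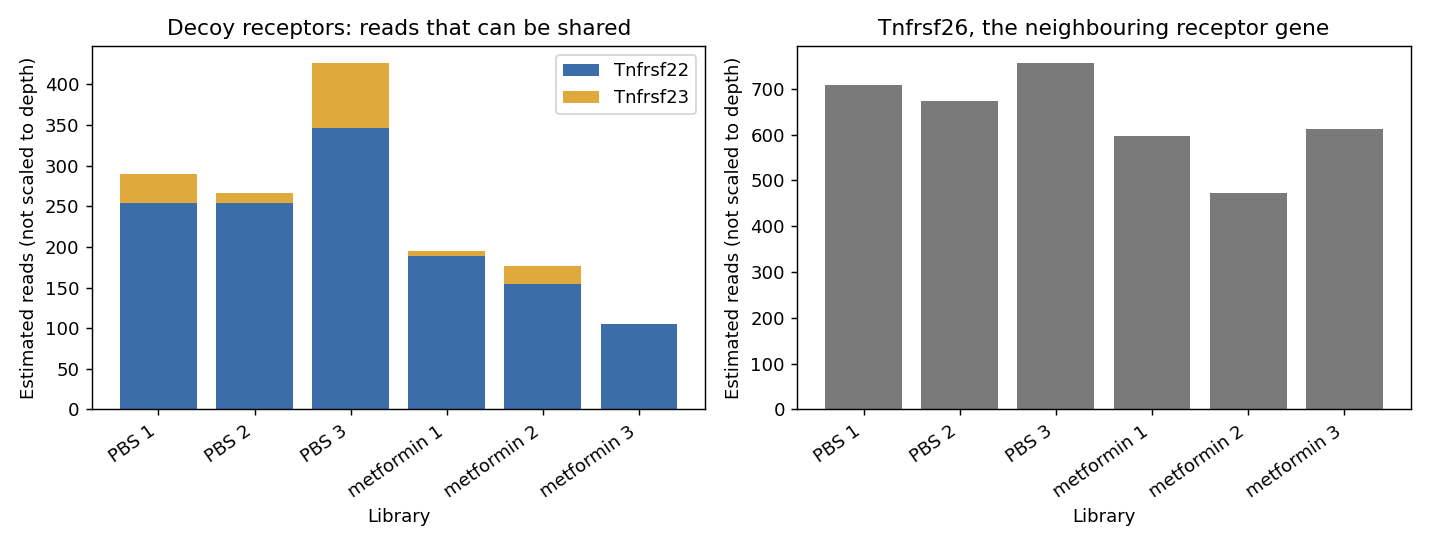
Estimated reads, not scaled to depth, per library: Tnfrsf22 and Tnfrsf23 stacked (left) and their neighbour Tnfrsf26 (right). The joint decoy reads run from 266 to 426 with PBS and from 105 to 195 with metformin, and the share given to Tnfrsf23 varies from 0% to 18.7%.

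Tnfrsf26, the neighbour in the cluster and likewise a receptor without a death domain, did not show the difference of the decoy genes in CPM. It held 26.1, 27.6 and 24.9 CPM with PBS and 26.1, 19.7 and 26.8 CPM with metformin. These groups overlapped, with metformin 2 alone low, and the log2 fold change was -0.11 (SE 0.15, adjusted p = 0.797). In TPM the groups of Tnfrsf26 did not overlap, at 12.8 ± 0.574 with PBS and 10.99 ± 1.42 with metformin (SD, n = 3). The difference between Tnfrsf26 and the decoy genes was not itself tested.

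Tnfrsf11b encodes osteoprotegerin, a soluble receptor that binds TRAIL and RANKL, and Tnfsf11 encodes RANKL. Tnfrsf11b held 0.663, 0.164 and 3.07 CPM with PBS and 0.131, 0.960 and 0.219 CPM with metformin, with PBS 3 far above the rest. Its log2 fold change of -1.56 (SE 1.08, adjusted p = 0.636) rested on that library and was 0.07 without it. Tnfsf11 held 0.368, 1.07 and 0.231 CPM with PBS and 1.09, 0.542 and 1.14 CPM with metformin, and the groups overlapped (log2 fold change 0.74, SE 0.68, adjusted p = 0.712). With 1 library left out the value of Tnfsf11 ran from 0.36 without PBS 3 to 1.61 without PBS 2.

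Among 18 ligands of the TNF family, Tnfsf10 ranked 3 by mean TPM over the 6 libraries. Fasl, whose product kills through the related receptor Fas, was the highest, at 433 ± 29.9 TPM with PBS and 450 ± 15.2 TPM with metformin. Ltb, which encodes lymphotoxin beta, followed at 381 ± 25.4 and 478 ± 47.5 TPM (SD, n = 3). Tnfsf14, the next after Tnfsf10, was at 39.2 ± 1.95 TPM with PBS and 33.8 ± 0.631 TPM with metformin, so it stood above Tnfsf10 in PBS and below it in metformin. Of the 14 ligands tested, 0 passed over all genes, 4 were higher and 0 lower at an unadjusted p under 0.05, beside 5.29% and 5.08% of all genes. The groups of 6 ligands were higher without overlap and of 0 lower, beside 9.49% and 9.63% of all genes, and Tnfsf10 was in both counts of higher ligands. The median log2 fold change of the 14 was 0.29, against 0.0053 over all genes tested. The log2 fold change of Ltb was 0.49 (SE 0.13, adjusted p = 0.312; DESeq2 adjusted p = 0.0399), and that of Fasl was 0.16 (SE 0.086, adjusted p = 0.543).

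Downstream of the death receptors, a list of 20 genes held the adaptors, caspases, mitochondrial steps and inhibitors of the pathway. All 20 were tested, 0 passed over all genes and 0 had an unadjusted p under 0.05. Their median log2 fold change was -0.02, with 10 above 0 and a range from -0.37 to 0.15. The smallest p was that of Bid, which links caspase-8 to mitochondria, at 102 ± 1.80 CPM in PBS and 89.3 ± 1.75 CPM in metformin libraries (SD, n = 3; log2 fold change -0.19, SE 0.085, adjusted p = 0.487). Casp8 itself, the initiator caspase, read 211, 199 and 210 CPM with PBS and 229, 227 and 225 CPM with metformin. The groups of Casp8 did not overlap, yet its log2 fold change was 0.13 (SE 0.084, adjusted p = 0.602) and -0.0064 on log2(TPM + 1).

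Ripk1, a kinase of the receptor complex, averaged 175 ± 19.1 CPM in PBS and 140 ± 30.9 CPM in metformin libraries (SD, n = 3; log2 fold change -0.33, SE 0.17, adjusted p = 0.538). Without metformin 3, which read 104 CPM, the log2 fold change of Ripk1 was -0.16. Besides Casp8, which was higher, Bid and Casp9 were lower without overlap, 3 of 20 in all, beside 9.49% of all genes higher and 9.63% lower without overlap.

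A second list held 20 genes reported to act on TRAIL expression, chiefly interferon and interleukin receptors, their signalling factors, and the T-box factors of NK cells and ILC1. All 20 were tested and 0 passed in edgeR. At an unadjusted p under 0.05 Fcer1g and Il15ra were higher, and Ifnar1 and Eomes lower, 2 of 20 each way, beside 5.29% and 5.08% of all genes. The groups of 1 gene were higher without overlap and of 4 lower, Tbx21 among them, beside 9.49% and 9.63% of all genes. The median log2 fold change was -0.07, with 8 of 20 above 0. Eomes, the T-box factor of conventional NK cells, read 312, 342 and 329 CPM with PBS and 216, 212 and 208 CPM with metformin. The groups were far apart relative to their spread, and the log2 fold change of Eomes was -0.63 (SE 0.087, adjusted p = 0.168 in edgeR, 6.33e-08 in DESeq2).

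Tbx21, the T-box factor that ILC1 share with NK cells, averaged 914 ± 18.5 CPM in PBS and 829 ± 78.4 CPM in metformin libraries (SD, n = 3; log2 fold change -0.14, SE 0.098, adjusted p = 0.637). The value of Tbx21 was -0.07 without metformin 3 and -0.28 on log2(TPM + 1). Ifnar1, a chain of the type I interferon receptor, averaged 225 ± 10.2 and 183 ± 21.8 CPM (log2 fold change -0.30, SE 0.11, adjusted p = 0.439). Il15ra, which presents interleukin-15, averaged 21.5 ± 1.82 and 27.6 ± 4.599 CPM (log2 fold change 0.36, SE 0.15, adjusted p = 0.475), and 0.22 without metformin 3. Fcer1g, a signalling adaptor of activating receptors, averaged 972 ± 31.9 and 1262 ± 259 CPM, with metformin 3 the highest at 1556 CPM. Its log2 fold change of 0.38 (SE 0.14, adjusted p = 0.452) was 0.05 with the gene length trend removed and 0.19 without metformin 3.

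**Figure D3:**
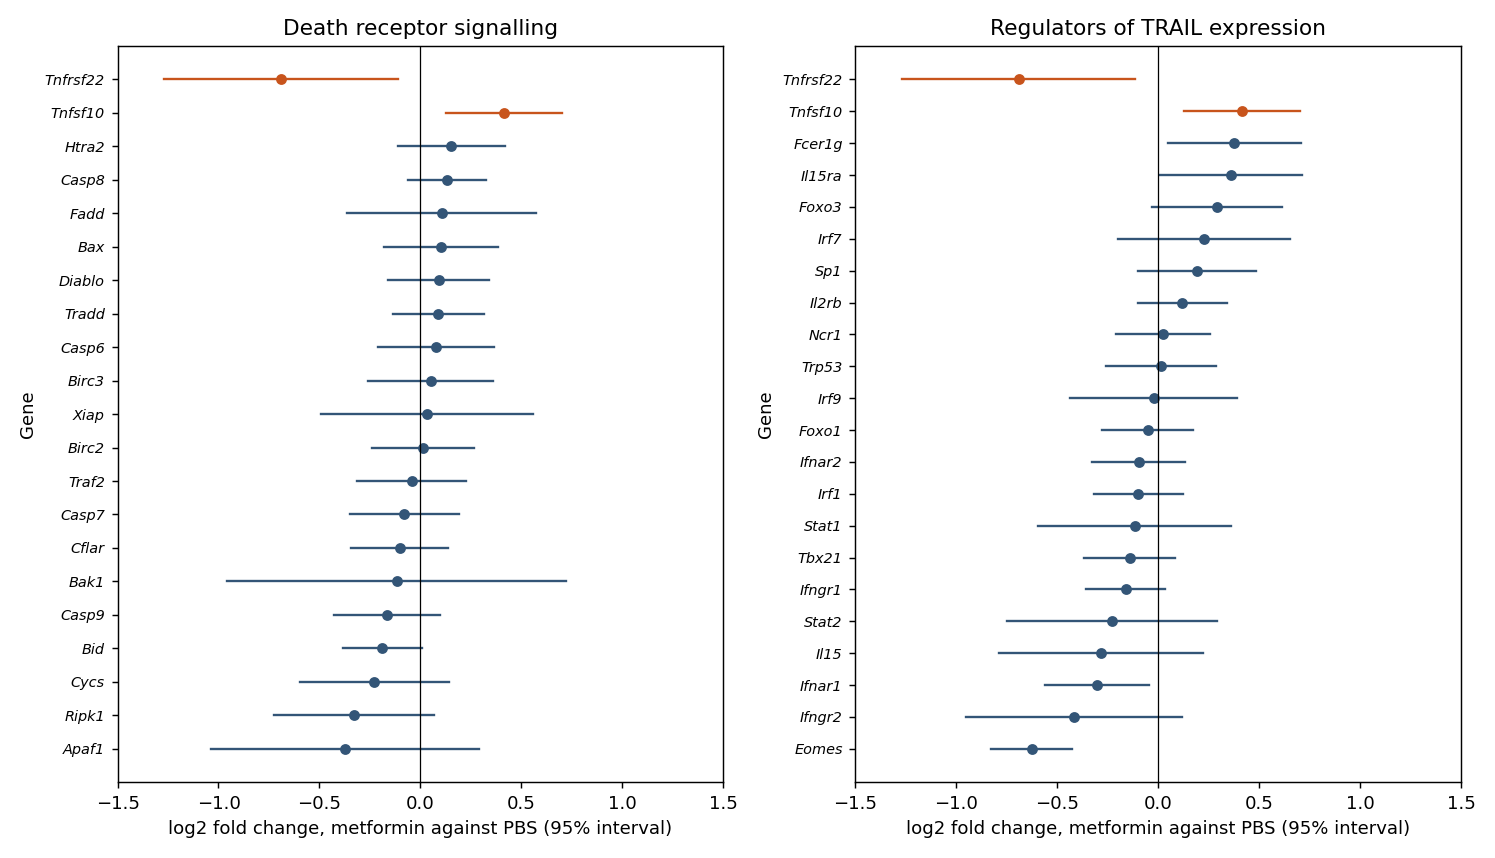
Log2 fold changes with 95% intervals from edgeR for 19 of the 20 genes of death receptor signalling (left) and 20 regulators of TRAIL expression (right), with Tnfsf10 and Tnfrsf22 in orange for scale. Intervals of the 19 genes on the left all cross 0, and Eomes lies lowest on the right, at -0.63.

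The labelled cell type was checked against its markers. NK cell markers summed to 21605 to 26852 CPM over 10 genes. Of these, 4 were higher without overlap and 1 was lower, beside 9.49% and 9.63% of all genes, with a median log2 fold change of 0.18. Ncr1, 1 of the 10, averaged 1400 ± 62.8 CPM in PBS and 1424 ± 147 CPM in metformin libraries (SD, n = 3). Its log2 fold change was 0.02. Markers of liver ILC1, cells that carry TRAIL, summed to 1190 to 1331 CPM with PBS and 1781 to 1951 CPM with metformin. All 10 ILC1 markers were higher without overlap, beside 9.49% of all genes, with a median log2 fold change of 0.61. Among them Cxcr6 went from a mean of 403 to 626 CPM and Il21r from 267 to 347 CPM. Markers of conventional NK cells summed to 4394 to 4480 CPM with PBS and 2754 to 3252 CPM with metformin, and all 10 were lower without overlap, beside 9.63% of all genes. Among them Itgam averaged 743 and 477 CPM, with metformin 3 the lowest at 289 CPM, and its log2 fold change of -0.64 was -0.39 without that library. None of these marker genes passed over all genes in edgeR. The lists were chosen with earlier results of these data known, so these counts are a description only. The part of the ILC1 and conventional NK markers in the level of Tnfsf10 was not tested.

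Relative to the mean of all libraries, Tnfsf10 was at -0.27, -0.07 and -0.28 (log2) in PBS libraries 1 to 3 and 0.10, 0.43 and 0.08 in metformin libraries 1 to 3. The mean of the ILC1 markers was -0.36, -0.28 and -0.25, then 0.32, 0.22 and 0.35. Both were below 0 in all PBS libraries and above 0 in all metformin libraries. This shared sign was close to set in advance, because Tnfsf10 and all 10 markers were already higher without overlap, as were 9.49% of all genes. Within metformin, metformin 2 was highest for Tnfsf10 and lowest for the ILC1 markers, an order of 3 libraries that was not tested.

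Other cells of the liver can carry these genes too. Sums of T cell markers were 180 to 274 CPM with PBS and 271 to 466 CPM with metformin, and 9 of 10 had a log2 fold change above 0. The sum in metformin 3, at 271 CPM, lay within the PBS range. Singly, 4 of the 10 T cell markers were higher without overlap, metformin 3 included, and 0 were lower. Of all genes 9.49% were higher and 9.63% lower without overlap. Tnfsf10 in metformin 3 was above all PBS libraries in CPM but not in TPM, and the part of T cells in Tnfsf10 was not tested. Kupffer cell and macrophage markers summed to 7.25 to 24.6 CPM with PBS and 28.7 to 102 CPM with metformin, led by Adgre1 (5.23 and 12.4 CPM) and C1qb (4.36 and 13.2 CPM). The groups of C1qb overlapped, metformin 3 was highest at 26.2 CPM, and its log2 fold change of 1.60 was 0.61 without that library. Plasmacytoid dendritic cell markers summed to 118 to 141 and 146 to 164 CPM, but each of the 6 genes alone overlapped between the groups. Bst2 averaged 39.5 and 55.2 CPM and Klk1 30.8 and 46.6 CPM, with log2 fold changes of 0.48 and 0.60 that were 0.23 and 0.39 with the gene length trend removed. The defining gene Siglech had a log2 fold change of 0.28 and Tcf4 of -0.19.

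The other marker sums overlapped between the groups. They were 29.6 to 156 and 69.8 to 224 CPM for B cells, 967 to 1166 and 980 to 1190 CPM for monocytes, and 11.4 to 15.7 and 4.08 to 28.7 CPM for neutrophils. Endothelial cell markers gave 99.5 to 113 and 81.2 to 103 CPM, and stellate cell and cholangiocyte markers 31.6 to 107 and 45.9 to 90.9 CPM. Of all these markers Rgs5 was at 0 in every library. The part of these cells in the levels of TRAIL and its receptors was not tested.

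**Figure D4:**
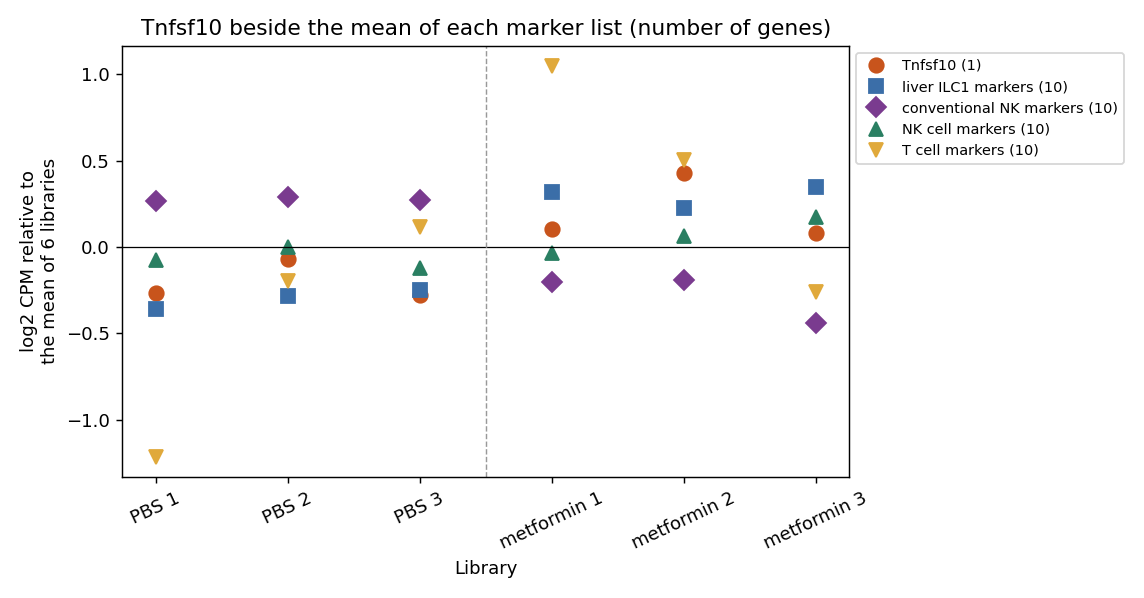
Log2 CPM of Tnfsf10 and the mean of 4 marker lists in each library, relative to the mean of the 6 libraries. Tnfsf10 and the ILC1 markers lie below 0 in the PBS libraries and above 0 in the metformin libraries, the conventional NK markers the other way round, and the T cell markers spread widely within both groups. Tnfsf10 and each ILC1 and conventional NK marker already separated the groups without overlap, so their sides were close to set in advance.

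The genes most like Tnfsf10 were sought among 9875 protein-coding genes of at least 5 CPM, by Pearson's r of log2 CPM over the 6 libraries, given as a description that also reflects the shared groups and libraries. Cables1 led with r = 0.997, with 24.2, 33.7 and 24.7 CPM in PBS and 43.2, 73.3 and 45.4 CPM with metformin. Like Tnfsf10, it was highest in metformin 2 and, among PBS libraries, in PBS 2, a likeness for which it was selected. The log2 fold change of Cables1 was 0.97 (SE 0.23, adjusted p = 0.276; DESeq2 adjusted p = 0.00634). Plpp6 (r = 0.992), Mrgpre (0.990), D930048N14Rik (0.988) and Pdia6 (0.986) followed, with means of 34.8 and 37.9, 7.26 and 12.01, 6.27 and 8.75, and 341 and 413 CPM in PBS and metformin.

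**Figure D5:**
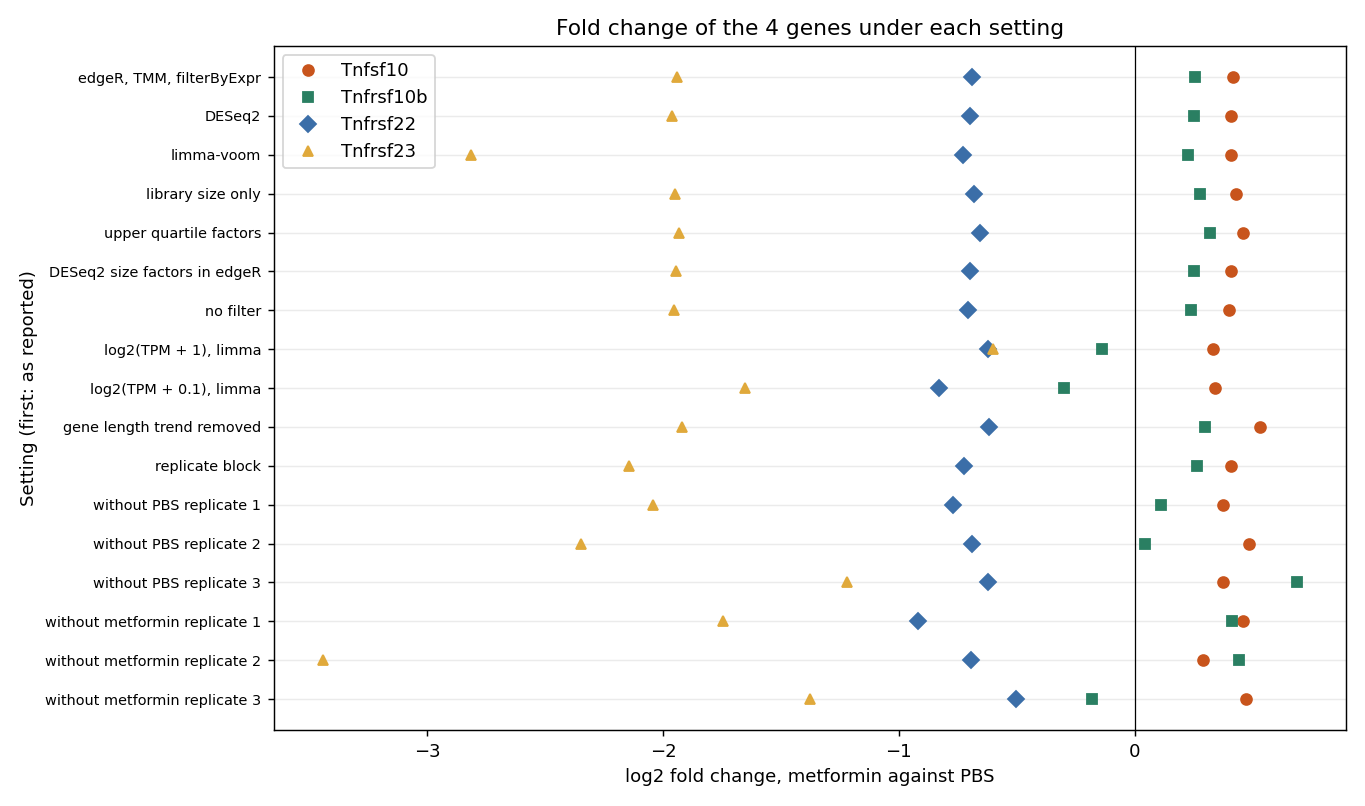
Log2 fold change of the 4 genes in the reported fit (top) and under 16 other settings, 1 per line. Tnfsf10 stays between 0.29 and 0.53 and Tnfrsf22 between -0.92 and -0.50, Tnfrsf23 stays below 0 over a wide range, and Tnfrsf10b lies on both sides of 0.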

How the data were processed

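Messenger RNA of liver NK cells was profiled in 6 libraries. RNA was purified on columns and made into SMART-seq mRNA libraries, per the labels' protocols. The submitters' processing notes name DRAGEN, without version, and the builds GRCm39 and mm10, without role. Of 52081 genes also in GENCODE M21 (GRCm38), 1494 have the same position in the deposited table, so coordinates outside the printed sequences are those of the table and not of GRCm38. The authors deposited estimated counts per gene, not normalized, and TPM values, which the authors scaled to an equal sum in each library. Use of strand and the handling of shared reads are not given in the sources used here.

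Estimated counts were rounded and tested with edgeR 4.0.16 (TMM, filterByExpr, no covariate, common biological coefficient of variation 27.3%) in R 4.3.3. Alternatives were DESeq2 1.42.0, limma-voom and limma on log2 TPM with pseudocounts of 1 and 0.1 (limma 3.58.1), library size only, upper quartile and DESeq2 size factors, no filter, a lowess offset on gene length (span 0.3), a replicate block, and each library left out. Sequences were aligned from GENCODE M21 transcripts with Biopython 1.88.

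Members and lists were chosen with earlier results of these data known. Named were the 4 genes, of each pathway list the 4 smallest p, the related genes Tnfrsf26, Tnfrsf11b and Tnfsf11, and Eomes and Tbx21. Also named were the 3 highest TNF ligands and the 5 genes most like Tnfsf10. Of marker lists whose sums did not overlap, the 2 highest genes were named. Tnfsf14, E230032D23Rik, Ncr1, Casp9, Siglech and Tcf4 were added after their values were seen. Some genes that the rule selects are not reported here.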

Additional observations from a re-analysis of the deposited data

How the results depend on the processing

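Tnfsf10, Tnfrsf22 and Tnfrsf23 kept their sign under all 16 other settings. Tnfsf10 and Tnfrsf22 passed the threshold over all genes under none. Tnfrsf23 passed under no setting that gave it an adjusted p, and DESeq2 gave it none. Tnfrsf10b reversed on log2(TPM + 1) (-0.137) and log2(TPM + 0.1) (-0.301), and ranged from -0.18 without metformin 3 to 0.69 without PBS 3. Leaving out 1 library gave 0.29 to 0.49 for Tnfsf10, -0.92 to -0.50 for Tnfrsf22 and -3.45 to -1.22 for Tnfrsf23. Among other named genes Casp8 reversed on log2(TPM + 1) (-0.00641) and log2(TPM + 0.1) (-0.00645), Tnfrsf11b without PBS 3 (0.0728; -2.87 to 0.0728 with 1 library left out) and Tnfrsf26 without metformin 2 (0.0123; -0.199 to 0.0123). The cause of these reversals was not tested.

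Genes called higher numbered 147 with DESeq2, 1 with no filter, 1 with the gene length trend removed, 3 with the replicate block and 0 to 1 with 1 library left out (1 without metformin 3). DESeq2 called 152 genes lower, and 1 regulator of TRAIL expression, Eomes. The median of death receptor signalling was 0.0275 with upper quartile factors, -0.0845 on log2(TPM + 1), -0.0859 on log2(TPM + 0.1), and -0.0702 to 0.0385 with 1 library left out, the ends being without PBS 1 and without PBS 3. The median of the regulators was -0.165 and -0.169 on the same TPM scales. Genes at an unadjusted p under 0.05 numbered 0 to 3 of 20 for death receptor signalling (3 on both TPM scales and without metformin 3) and 2 to 7 for the regulators (7 with the length trend removed, 2 without each PBS library).

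Replicate numbers occur in both groups. The correlations of same-numbered deviations were 0.171, 0.0757 and 0.172, and those of the other pairs ran from -0.243 to 0.0763. PBS 1 and PBS 3 correlated best with the metformin library of their own number. PBS 2 was about equally close to metformin 1, at 0.0763, and metformin 2, at 0.0757. Whether same-numbered libraries share more than a number was not tested. With the replicate block the log2 fold change was 0.41 for Tnfsf10 (adjusted p = 0.354) and -0.72 for Tnfrsf22 (adjusted p = 0.473). Depth limits Tnfrsf10b and Tnfrsf23, which had at most 42 and 79.7 estimated reads in a library.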
